A study of Mus musculus with 24 samples.

Results

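Adgrg7, Nppb, Lpo and Nmu were followed across mouse skin that expresses the E7 oncoprotein of human papillomavirus 16, as 4 of the 27180 rows counted in each library. They were chosen by their own measured counts, near 0 in C57 ear skin and high in E7 ear skin or E7 grafts, so the contrasts of E7 with C57 skin that chose them are given as descriptions with no test. Adgrg7 is listed in the files under its older symbol, Gpr128. All 4 rows were found, and all 4 passed the low-count filter of the ear fit and of the graft fit.

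The study set donor genotypes side by side in intact and in grafted ear skin. Intact ear skin was taken at 8 weeks of age from K14E7 mice (E7 ear), which carry E7 behind the keratin 14 promoter of basal keratinocytes on the C57BL/6 strain, and from C57BL/6 mice with no transgene (C57 ear). Grafted ear skin came from CD1dKOxK14E7 donors (CD1dKOxE7 grafts), which carry the same transgene and lack CD1d per their label, from K14E7 donors (E7 grafts) and from C57BL/6 donors (C57 grafts). Every graft stood on a C57BL/6 recipient, so the cells that enter it from the host carried neither the transgene nor the CD1d knockout, and grafts were taken at 14 and at 28 days post grafting (dpg, as that label is read here). Each of the 8 groups held 3 libraries, 24 in all, and nothing in the labels said whether each library was a separate animal, so p-values measure the spread between these samples, which may be technical. No label gives the age or sex of graft donors.

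These genes are best known from tissues other than skin. Adgrg7 encodes an adhesion G protein-coupled receptor known from the intestinal epithelium of mice. Nppb encodes brain natriuretic peptide, a hormone of heart muscle that acts through the guanylyl cyclase receptor Npr1 and is cleared by Npr3. Lpo encodes lactoperoxidase, a secreted heme peroxidase of milk, saliva and airway fluid that uses hydrogen peroxide to make antimicrobial oxidants. Nmu encodes neuromedin U, a neuropeptide of gut and brain that acts through the receptors Nmur1 and Nmur2.

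The 4 genes lie on 4 different chromosomes. In GRCm38, the build named mm10 in the submitters' processing notes, Adgrg7 (Entrez 239853) spans chr16:56724609-56796006 on the minus strand, Nppb (Entrez 18158) spans chr4:147985786-147987205 on the plus strand, Lpo (Entrez 76113) spans chr11:87806428-87826114 on the minus strand and Nmu (Entrez 56183) spans chr5:76333495-76363777 on the minus strand. The promoter windows below, from 250 bases before to 50 bases after a RefSeq transcript start (GRCm38.p6), are shown because the 4 genes share the pattern that chose them, and they can be read for sequence that they share too. Capitals mark matches to the core letters of 9 motifs searched on both strands.
Adgrg7: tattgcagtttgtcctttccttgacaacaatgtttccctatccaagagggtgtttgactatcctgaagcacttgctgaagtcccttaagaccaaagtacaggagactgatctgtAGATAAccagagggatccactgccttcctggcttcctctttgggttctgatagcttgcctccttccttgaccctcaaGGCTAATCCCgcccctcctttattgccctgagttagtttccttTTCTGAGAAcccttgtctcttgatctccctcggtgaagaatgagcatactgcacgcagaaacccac
Nppb: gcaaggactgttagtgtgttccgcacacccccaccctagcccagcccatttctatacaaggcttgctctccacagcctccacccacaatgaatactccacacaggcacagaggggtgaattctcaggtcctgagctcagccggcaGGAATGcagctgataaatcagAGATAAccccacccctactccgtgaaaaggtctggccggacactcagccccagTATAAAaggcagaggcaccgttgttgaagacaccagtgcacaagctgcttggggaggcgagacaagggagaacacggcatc
Lpo: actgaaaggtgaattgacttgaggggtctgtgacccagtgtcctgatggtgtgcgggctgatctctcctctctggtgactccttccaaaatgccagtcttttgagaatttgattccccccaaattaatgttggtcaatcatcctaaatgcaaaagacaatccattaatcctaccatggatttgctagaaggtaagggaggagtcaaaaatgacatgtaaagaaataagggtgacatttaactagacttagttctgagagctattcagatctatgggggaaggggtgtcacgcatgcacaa
Nmu: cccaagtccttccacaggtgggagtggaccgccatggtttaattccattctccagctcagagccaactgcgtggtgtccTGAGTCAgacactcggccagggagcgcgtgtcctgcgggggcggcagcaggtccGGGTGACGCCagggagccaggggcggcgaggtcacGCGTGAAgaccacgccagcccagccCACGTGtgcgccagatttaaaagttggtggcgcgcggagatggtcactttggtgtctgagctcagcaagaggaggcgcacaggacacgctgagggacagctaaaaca
The windows are chr16:56795809-56796108 (minus strand), chr4:147985650-147985949 (plus strand), chr11:87826065-87826364 (minus strand) and chr5:76363728-76364027 (minus strand), in that order.

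No motif was found in all 4 windows, and the Lpo window held none of the 9. The Nppb window held a TATA box (TATAAA, 31 to 26 bases before the start; in 13.6% of 32851 RefSeq promoter windows), the GATA core (AGATAA, in 11.2%) and, on the minus strand, the TEAD core (CATTCC, in 14.7%). The Adgrg7 window held the GATA core as well, with a STAT match (TTCNNNGAA, 16 to 8 bases before the start; in 8.3%) and an NF-kB match on the minus strand (GGGNNNNNCC, a loose pattern held by 50.8%). The Nmu window held an AP-1 match (TGANTCA, in 7.81%), an E2F match (GCGNGAA, 82 to 76 bases before the start; in 8.91%), an E-box (CACGTG, in 7.15%) and an NF-kB match. The CCAAT box (CCAAT, in 37.4%) was in none of them. None of the matches shown overlapped another. For Adgrg7 and Nppb the transcript start used lies inside the gene span given above, and so do all their matches. Base composition differed, with 21 CpG sites and 63% GC in the Nmu window, 7 and 55.7% in that of Nppb, 3 and 48% in that of Adgrg7 and 2 and 43.3% in that of Lpo, against a median of 7 CpG sites over all windows. These matches describe letters and not binding.

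Library totals were 6550011 to 13814448 counts, so that 3 counts in a library equalled 0.203 to 0.476 CPM (counts per library size, TMM-scaled over all 24 libraries and brought to a common total). E7 transgene reads followed the donor labels, with 17.6 to 57.1 CPM in the libraries of E7 and CD1dKOxE7 skin and 0 to 2 counts in each C57 library. Cd1d1, the CD1d gene, was still read in CD1dKOxE7 grafts. At 14 dpg it had 13.6, 17.2 and 11.4 CPM there, against 15.2, 14.3 and 16.8 CPM in E7 grafts. These reads do not check the knockout, since no label says which exons were removed and cells from the host carried no CD1d knockout. At 28 dpg replicate 3 of the CD1dKOxE7 grafts stood apart from its group. It had 14.7 CPM of Cd1d1 against 5.33 and 4.44 CPM, and 18.8 CPM of E7 against 44.1 and 44.4 CPM. Results that rest on this replicate are given with and without it. Ear and graft libraries were on different flow cells, and CD1dKOxE7 grafts were on another lane than the other grafts, so lane and CD1d genotype cannot be told apart. Keratinocyte markers (Krt5, Krt14 and 6 others) were high in every library, and in ear summed to 48633 to 53921 CPM in E7 skin, against 25708 to 27854 CPM in C57 skin (6 of 8 rose and 1 fell, median log2 fold change 0.57). The higher sum came mostly from the suprabasal keratins Krt1 (10630 CPM in E7 ear and 843 CPM in C57 ear on average) and Krt10 (22614 CPM in E7 ear and 11854 CPM in C57 ear). The basal keratins were mixed. Krt14 rose by 0.69 and Krt15 fell by 2.15 on the log2 scale, and Krt5 did not pass (0.04, edgeR adjusted p = 0.724). The part of these marker shifts in the levels of the 4 genes was not tested.

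In intact ear skin all 4 genes were high in every E7 library and at or near 0 in every C57 library. Adgrg7 had 33.0, 22.0 and 40.3 CPM in E7 ear, against 0, 0.150 and 0.0676 CPM in C57 ear. Its 995 reads in E7 ear against 3 in C57 ear gave a ratio of 429 (95% counting interval 146 to 2082). The E7 libraries of this receptor gene lay far above all C57 libraries, of which 1 had no read.

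Nppb had 23.1, 22.5 and 28.7 CPM in E7 ear, against 0.163, 0.150 and 0.0676 CPM in C57 ear, 774 reads against 5 (ratio 200, 95% counting interval 85.4 to 618). The 3 E7 libraries were close to each other, and each C57 library held only 1 or 2 reads of this hormone gene. Lpo had 68.5, 63.5 and 132 CPM in E7 ear, against 0.409, 0.450 and 0.676 CPM in C57 ear, a log2 difference of 7.37 ± 0.58 (SE). It had the highest level of the 4 per library and the widest spread between E7 ears, through 1 library.

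Nmu had 18.0, 24.7 and 15.7 CPM in E7 ear, against 0.490, 0.375 and 0.271 CPM in C57 ear, a log2 difference of 5.67 ± 0.28. It showed the smallest ratio of the 4, and its groups did not overlap either. Of 15720 genes tested in ear, 35.4% had all E7 libraries above all C57 libraries and 32.6% passed at adjusted p < 0.05 in that direction. Since this contrast chose the 4 genes, nothing is read from their count. Per kilobase of annotated exon, the mean levels in E7 ear were 31.7 CPM for Nppb, 28 CPM for Lpo, 23.5 CPM for Nmu and 11.8 CPM for Adgrg7. These are bulk levels, in which fewer cells of a type and less RNA per cell cannot be told apart. Counts of Nmu and Adgrg7 are less certain than the rest, because each overlaps an annotated transcript on the opposite strand (4930432L08Rik and the pseudogene Gm15693) and no source used here states whether counting used strand.

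**Figure D1:**
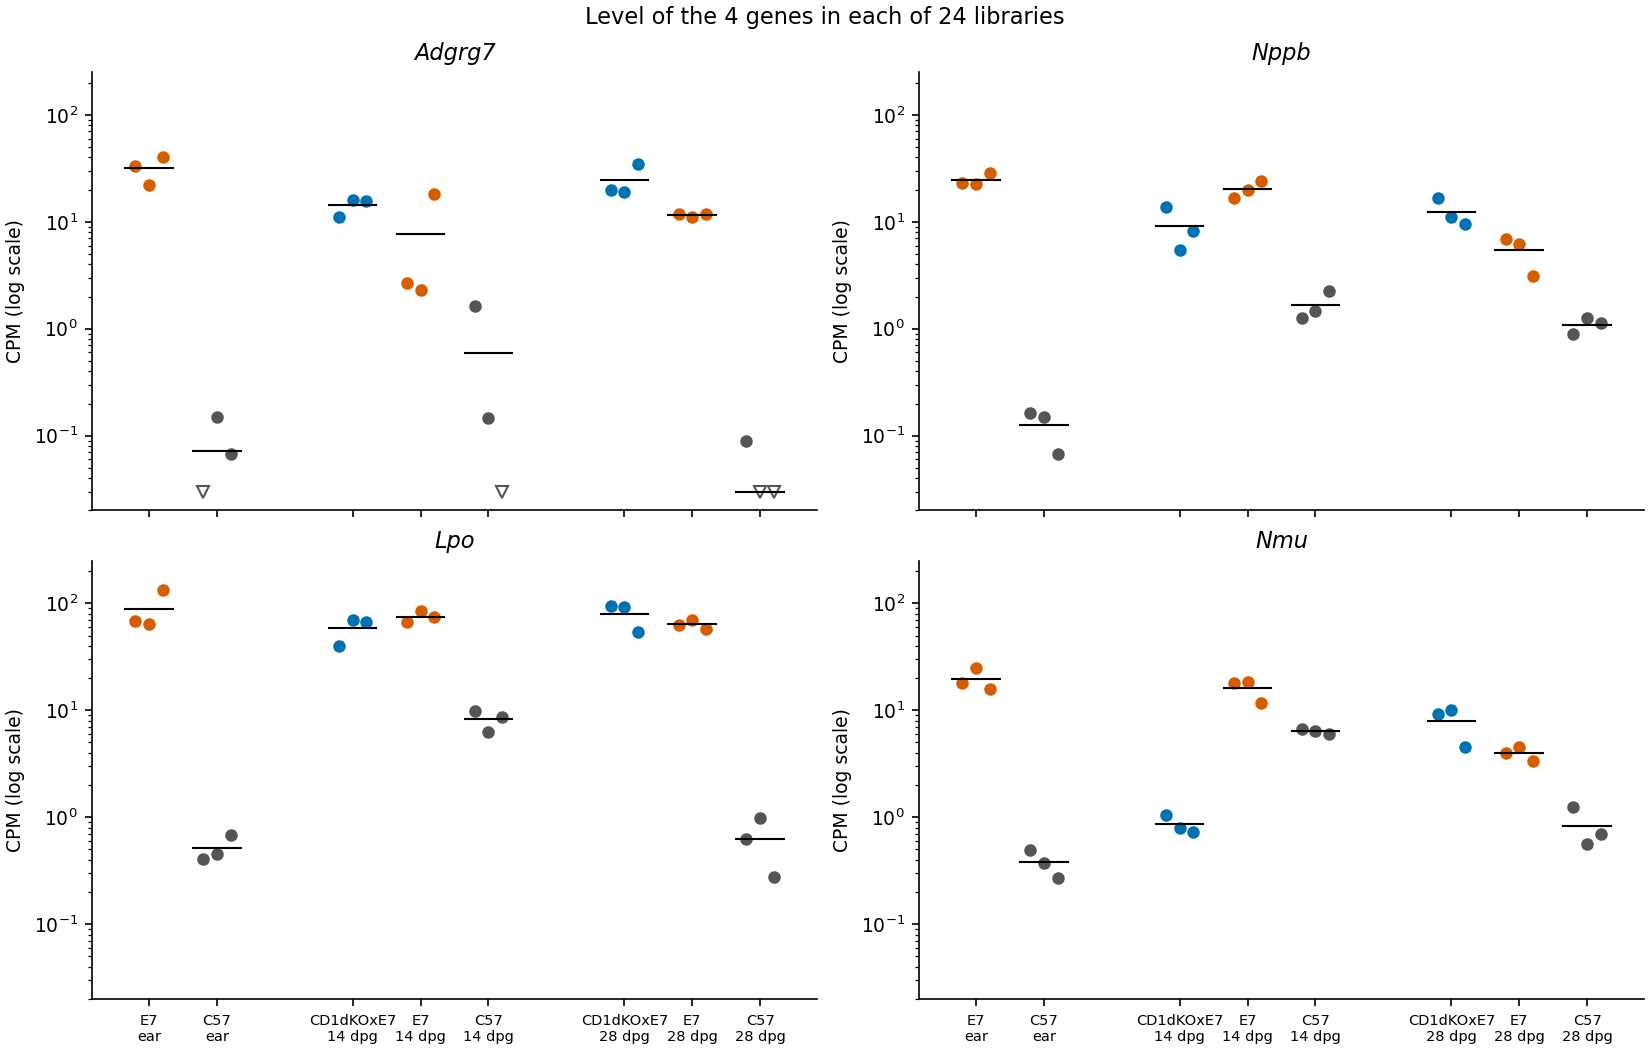
Level of each gene (CPM, log axis) in each library of the 8 groups, with E7 in orange, C57 in grey and CD1dKOxE7 in blue. Filled points are libraries, open triangles at the bottom are libraries with 0 counts, and lines are means of 3. All 4 genes are high in E7 ear and near the bottom in C57 ear, and Nmu alone lies at 0.721 to 1.06 CPM in CD1dKOxE7 grafts at 14 dpg.

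In grafts at 14 dpg the C57 skin itself held Lpo and Nmu, and the distance between E7 and C57 was smaller. Lpo had 66.3, 84.1 and 73.7 CPM in E7 grafts, against 9.85, 6.27 and 8.59 CPM in C57 grafts (log2 difference 3.19 ± 0.27). Nmu had 17.8, 18.5 and 11.6 CPM in E7 grafts, against 6.69, 6.42 and 5.96 CPM in C57 grafts (1.34 ± 0.26). Both were well above their levels in C57 ear, though ear and grafts differ in flow cell as well.

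Nppb had 16.6, 19.7 and 24.1 CPM in E7 grafts at 14 dpg, against 1.26, 1.46 and 2.27 CPM in C57 grafts (3.59 ± 0.39). Its C57 grafts too lay above C57 ear (0.163, 0.150 and 0.0676 CPM), with the same difference in flow cell. Adgrg7 had 2.70, 2.30 and 18.3 CPM in E7 grafts, against 1.64, 0.146 and 0 CPM in C57 grafts (3.69 ± 0.93). Replicate 3 of the E7 grafts and replicate 1 of the C57 grafts stood above the rest of their groups, and the Adgrg7 difference was 2.02 without that E7 library and 6.63 without that C57 library. E7 lay above C57 in every library for all 4 genes, as it did for 22.1% of 16189 genes.

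At 28 dpg the C57 grafts held little of any of the 4 genes, and Lpo and Adgrg7 were far higher in E7 grafts. Lpo had 63.3, 70.3 and 57.6 CPM in E7 grafts, against 0.626, 0.979 and 0.279 CPM in C57 grafts (log2 difference 6.65 ± 0.39). Adgrg7 had 11.7, 11.0 and 11.9 CPM in E7 grafts, against 0.0895, 0 and 0 CPM in C57 grafts, 267 reads against 1 (ratio 294, 95% counting interval 52.3 to 11653). Adgrg7, which was uneven at 14 dpg, was nearly equal in the 3 E7 grafts of this day.

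Nppb had 6.95, 6.20 and 3.12 CPM in E7 grafts at 28 dpg, against 0.895, 1.26 and 1.12 CPM in C57 grafts (2.34 ± 0.45). Nmu had 3.97, 4.51 and 3.37 CPM in E7 grafts, against 1.25, 0.559 and 0.697 CPM in C57 grafts (2.15 ± 0.37). For these hormone genes both groups were low and did not overlap. All E7 libraries lay above all C57 libraries for 27.7% of genes at this day.

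C57 grafts are not named in the choice of the genes, though a contrast of E7 grafts with them may have entered it. In C57 grafts Lpo and Nmu fell between the days. Lpo fell 12.8-fold, with 0.628 ± 0.350 CPM at 28 dpg and 8.24 ± 1.81 CPM at 14 dpg (SD, n = 3 each; log2 fold change -3.68 ± 0.46, edgeR adjusted p = 0.000123). Nmu fell 7.03-fold, with 0.836 ± 0.367 CPM at 28 dpg and 6.36 ± 0.370 CPM at 14 dpg (-2.81 ± 0.35, edgeR adjusted p = 0.000104). For both, every graft of 28 dpg lay below every graft of 14 dpg, as for 26% of genes.

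Nppb did not pass in C57 grafts (-0.63 ± 0.52, 95% interval -1.74 to 0.47, edgeR adjusted p = 0.423). Adgrg7 held 1 read in the C57 grafts of 28 dpg and 14 in those of 14 dpg, of which 13 were in replicate 1 (ratio 0.0649, 95% counting interval 0.00153 to 0.426; edgeR adjusted p = 0.31). Of the 4 genes 2 were called lower, and of all 16189 genes 14.2% were.

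In E7 grafts the hormone genes Nppb and Nmu fell with time, while the call was not made for Lpo and Adgrg7. High levels in E7 grafts could enter the choice of the genes, with no day named and no difference between days used, so the E7 arm of this and of the comparisons with CD1dKOxE7 grafts is not independent of that choice. Nppb had 5.42 ± 2.03 CPM at 28 dpg and 20.2 ± 3.75 CPM at 14 dpg, a 3.69-fold fall (log2 fold change -1.88 ± 0.33, edgeR adjusted p = 0.00255). Nmu had 3.95 ± 0.568 CPM at 28 dpg and 16.0 ± 3.80 CPM at 14 dpg, a 3.99-fold fall (-2.0 ± 0.28, edgeR adjusted p = 0.000746). The libraries of the days did not overlap for either gene, as for 21.2% of genes in that direction, and 9.48% of genes were called lower in this comparison.

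Lpo differed between days by -0.22 ± 0.23 (95% interval -0.71 to 0.27, edgeR adjusted p = 0.544), with overlapping libraries. Adgrg7 differed by 0.55 ± 0.62 (interval -0.78 to 1.89, edgeR adjusted p = 0.57). Without replicate 3 of the E7 grafts at 14 dpg, the library at 18.3 CPM, Adgrg7 was called higher at 28 dpg (2.23, edgeR adjusted p = 0.0106).

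At 14 dpg Nmu was far lower in CD1dKOxE7 than in E7 grafts, and Nppb was lower too. Nmu had 1.06, 0.800 and 0.721 CPM in CD1dKOxE7 grafts, against 17.8, 18.5 and 11.6 CPM in E7 grafts. It was 18.1-fold lower (log2 fold change -4.18 ± 0.33, 95% interval -4.88 to -3.48, edgeR adjusted p = 1.47e-06), with 25 reads in CD1dKOxE7 grafts against 382 in E7 grafts. The CD1dKOxE7 grafts also lay below the C57 grafts of that day (5.96 to 6.69 CPM, log2 difference -2.84 ± 0.35, a contrast given without a test). All libraries of CD1dKOxE7 grafts were below all libraries of E7 and of C57 grafts.

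Nppb fell as well, to 13.6, 5.42 and 8.22 CPM in CD1dKOxE7 grafts, against 16.6, 19.7 and 24.1 CPM in E7 grafts (-1.17 ± 0.31, edgeR adjusted p = 0.0105). The groups did not overlap for either gene, as for 21.2% of 16189 genes in that direction, but without replicate 2 of the CD1dKOxE7 grafts the call was lost (-0.89, edgeR adjusted p = 0.0511). In this comparison 14.8% of 16189 genes were called lower and 15.1% higher, beside 2 of the 4 genes called lower and none higher.

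Lpo had 40.0, 69.4 and 67.4 CPM in CD1dKOxE7 grafts, against 66.3, 84.1 and 73.7 CPM in E7 grafts (-0.36 ± 0.23, 95% interval -0.84 to 0.13, edgeR adjusted p = 0.273). Adgrg7 had 11.2, 16.0 and 15.6 CPM in CD1dKOxE7 grafts, against 2.70, 2.30 and 18.3 CPM in E7 grafts (0.83 ± 0.61, interval -0.48 to 2.15, edgeR adjusted p = 0.339). Both genes overlapped between groups, and Adgrg7 was called higher in CD1dKOxE7 grafts when E7 replicate 3 was left out (2.51, edgeR adjusted p = 0.00228).

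The make-up of the CD1dKOxE7 grafts at 14 dpg differed too. Their summed keratinocyte markers were 25624 to 38319 CPM, against 56962 to 101547 CPM in E7 grafts, with 5 of 8 fallen and 1 risen (median log2 fold change -1.21, against -0.03 over all genes). The lower sum came from the suprabasal keratins Krt1 (9913 CPM in CD1dKOxE7 grafts and 29830 CPM in E7 grafts on average) and Krt10 (3799 CPM in CD1dKOxE7 grafts and 26333 CPM in E7 grafts), which fell. The basal markers were mixed: Krt14 rose (0.57) and Krt15 fell (-0.82, edgeR adjusted p = 0.023). Krt5 (0.01, edgeR adjusted p = 0.981) and Trp63 (0.17, edgeR adjusted p = 0.338) did not pass. Summed T cell markers were 249 to 303 CPM, against 29.5 to 44.3 CPM in E7 grafts, and all 6 rose. Summed granulocyte markers were 1137 to 2303 CPM, against 31.7 to 253 CPM in E7 grafts, where 2 of the 3 tested rose. The sum did not come from Mpo, Epx, Elane, Prg2, Camp or Ngp, which were too low to test. These averaged at most 0.349 CPM (Camp) in CD1dKOxE7 grafts and 0.955 CPM (Ngp) in E7 grafts. Ltf averaged 2.24 CPM in CD1dKOxE7 grafts and 0.534 CPM in E7 grafts and did not pass (edgeR adjusted p = 0.0978). The 2 that rose are among the other markers of the list, Prtn3, S100a8 and S100a9, which hold nearly all of the sum. The sum therefore does not describe the granulocyte list as a whole. The transgene itself stood at 20.4, 17.6 and 23.5 CPM in CD1dKOxE7 grafts, against 33.8, 40.6 and 38.6 CPM in E7 grafts. The part of these differences, and of the lane, in the Nmu and Nppb results was not tested.

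**Figure D2:**
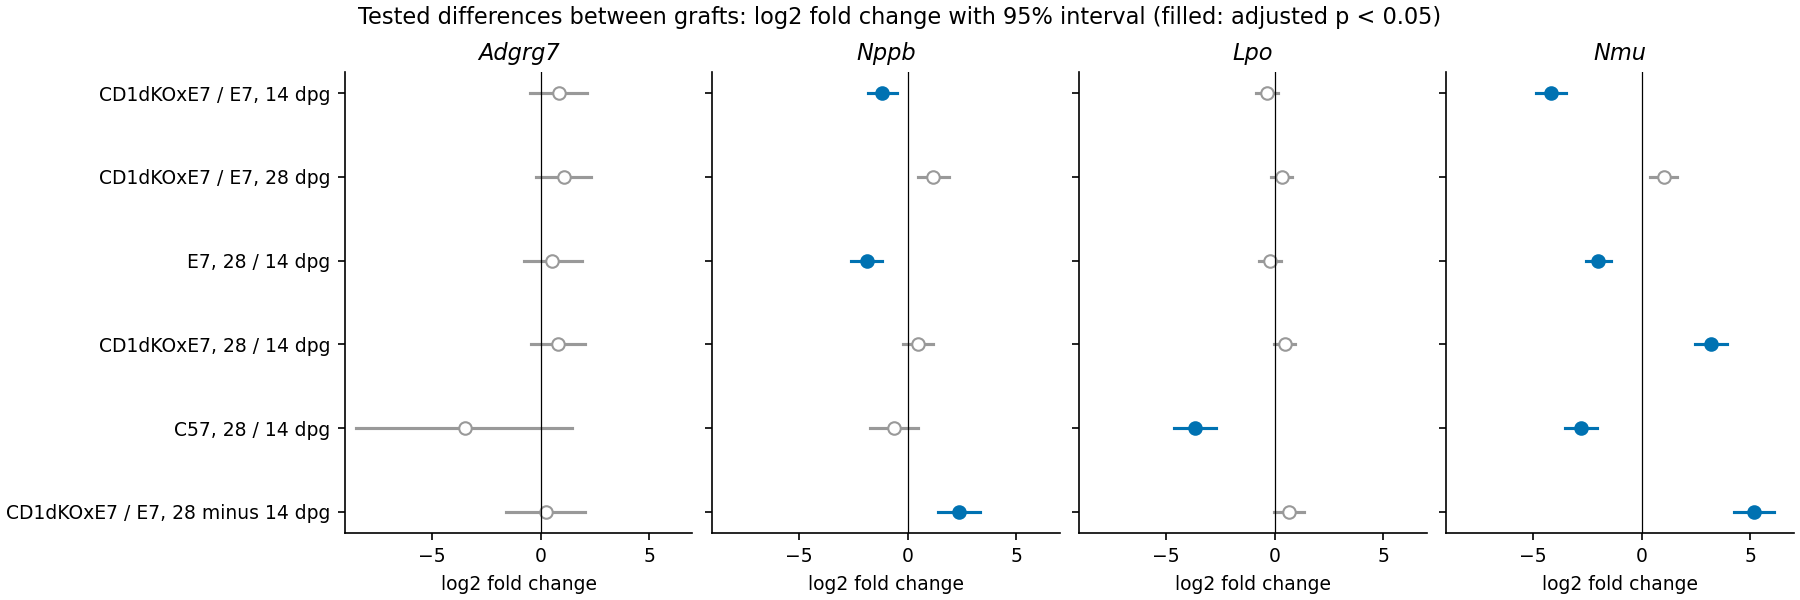
Log2 fold change of each gene in the 6 tested comparisons of grafts, first-named group over the second, with its 95% interval; filled points passed at adjusted p < 0.05 in edgeR. Nmu is at -4.18 for CD1dKOxE7 over E7 at 14 dpg and at 5.18 for the change of that difference between days, while Adgrg7 passed in none.

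Against C57 grafts, a contrast close to the one that chose the genes, Adgrg7, Nppb and Lpo were higher in CD1dKOxE7 grafts at 14 dpg by 4.53 ± 0.89, 2.43 ± 0.40 and 2.83 ± 0.27 on the log2 scale. The Adgrg7 difference was 7.46 without replicate 1 of the C57 grafts, which held 13 of their 14 reads. All CD1dKOxE7 libraries lay above all C57 libraries for these 3 genes, as for 24.4% of genes, and below them for Nmu, as for 27.3%. At 28 dpg all 4 genes were higher in CD1dKOxE7 than in C57 grafts without overlap, as for 29% of genes. The log2 differences of that day were 3.54 ± 0.42 for Nppb, 6.97 ± 0.38 for Lpo and 3.16 ± 0.35 for Nmu, and Adgrg7 had 587 reads in CD1dKOxE7 grafts against 1 in C57 grafts (ratio 615, 95% counting interval 110 to 24320).

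By 28 dpg Nmu in CD1dKOxE7 grafts was no longer low. It had 9.25, 10.0 and 4.53 CPM in CD1dKOxE7 grafts, against 3.97, 4.51 and 3.37 CPM in E7 grafts (log2 fold change 1.00 ± 0.28, 95% interval 0.40 to 1.60, edgeR adjusted p = 0.147). The CD1dKOxE7 libraries all lay above the E7 libraries, replicate 3 barely so, and without that replicate the gene passed (1.28, edgeR adjusted p = 0.0142). Nppb had 16.8, 11.0 and 9.60 CPM in CD1dKOxE7 grafts, against 6.95, 6.20 and 3.12 CPM in E7 grafts (1.19 ± 0.34, edgeR adjusted p = 0.148).

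On the same day Adgrg7 had 20.0, 18.9 and 34.4 CPM in CD1dKOxE7 grafts, against 11.7, 11.0 and 11.9 CPM in E7 grafts (1.07 ± 0.59, edgeR adjusted p = 0.471). Lpo had 93.5, 92.9 and 53.7 CPM in CD1dKOxE7 grafts, against 63.3, 70.3 and 57.6 CPM in E7 grafts (0.32 ± 0.23, edgeR adjusted p = 0.592). None of the 4 passed, in a comparison where 0.21% of genes did (34 genes, and 304 without replicate 3 of the CD1dKOxE7 grafts). For Adgrg7, Nppb and Nmu all CD1dKOxE7 libraries were nevertheless above all E7 libraries, which held for 8.57% of genes, and only Lpo overlapped.

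Within CD1dKOxE7 grafts Nmu rose 9.1-fold with time, to 7.94 ± 2.98 CPM at 28 dpg, against 0.860 ± 0.176 CPM at 14 dpg (3.19 ± 0.34, edgeR adjusted p = 4.84e-05; 10.8% of genes were called higher and 13.7% had no overlap in that direction). In E7 grafts, as given above, it fell. Nppb (0.48 ± 0.32, edgeR adjusted p = 0.312), Adgrg7 (0.79 ± 0.58, 0.363) and Lpo (0.46 ± 0.23, 0.169) did not pass; Lpo passed without replicate 3 of 28 dpg (0.68, edgeR adjusted p = 0.0189).

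The difference between CD1dKOxE7 and E7 grafts itself changed between days for the hormone genes. For Nmu the log2 difference was 5.18 ± 0.44 larger at 28 dpg than at 14 dpg (95% interval 4.25 to 6.11, edgeR adjusted p = 5.38e-05), and for Nppb it was 2.36 ± 0.46 larger (1.38 to 3.34, edgeR adjusted p = 0.00511). This change was called in the same direction for 6.54% of 16189 genes. Lpo (0.68 ± 0.32, interval -0.02 to 1.37, edgeR adjusted p = 0.188) and Adgrg7 (0.23 ± 0.85, interval -1.59 to 2.06, edgeR adjusted p = 0.893) did not pass, and Lpo did without replicate 3 of the CD1dKOxE7 grafts at 28 dpg (0.90, edgeR adjusted p = 0.0278). Keratinocyte markers moved the same way in that test, with 4 of 8 called higher and none lower (median 0.99). Krt5, Krt14, Krt15 and Trp63 did not pass. T cell markers moved the other way, with 5 of 6 called lower (median -1.96).

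Set in order over the 8 groups, the genes differed in where the grafts fell. Lpo averaged 87.9, 80, 74.7, 63.7 and 58.9 CPM in E7 ear, CD1dKOxE7 grafts at 28 dpg, E7 grafts at 14 dpg, E7 grafts at 28 dpg and CD1dKOxE7 grafts at 14 dpg, and neighbours in that order overlapped. C57 grafts at 14 dpg (8.24 CPM) lay apart below them, and C57 grafts at 28 dpg (0.628 CPM) and C57 ear (0.512 CPM) overlapped at the end. Adgrg7 followed the order E7 ear, CD1dKOxE7 grafts at 28 dpg, CD1dKOxE7 grafts at 14 dpg, E7 grafts at 28 dpg and E7 grafts at 14 dpg, with averages of 31.8, 24.4, 14.2, 11.5 and 7.75 CPM; of these neighbours only the CD1dKOxE7 grafts of the 2 days did not overlap. C57 grafts at 14 dpg (0.596 CPM), C57 ear (0.0726 CPM) and C57 grafts at 28 dpg (0.0298 CPM) came last and overlapped.

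Nppb averaged 24.8, 20.2, 12.4, 9.07 and 5.42 CPM in E7 ear, E7 grafts at 14 dpg, CD1dKOxE7 grafts at 28 dpg, CD1dKOxE7 grafts at 14 dpg and E7 grafts at 28 dpg, each overlapping the next. C57 grafts at 14 dpg (1.66 CPM), C57 grafts at 28 dpg (1.09 CPM) and C57 ear (0.127 CPM) followed, the C57 grafts of the 2 days meeting at 1.26 CPM and C57 ear lying apart below. Nmu was the only gene of the 4 with a transgenic group among the C57 groups in this order. It averaged 19.5 CPM in E7 ear and 16.0 CPM in E7 grafts at 14 dpg, which overlapped, then 7.94 CPM in CD1dKOxE7 grafts at 28 dpg and 6.36 CPM in C57 grafts at 14 dpg, which overlapped, then 3.95 CPM in E7 grafts at 28 dpg. CD1dKOxE7 grafts at 14 dpg (0.860 CPM) overlapped with C57 grafts at 28 dpg (0.836 CPM), and C57 ear (0.379 CPM) was lowest.

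Receptors and partners of Nppb were mostly lower in E7 than in C57 ear. Of 11 genes of the natriuretic system 9 were tested in E7 against C57 ear, and 7 fell and 2 rose (median log2 fold change -1.60, against 0.00 over all genes; 65.3% of 15720 genes were called in either direction). The receptor Npr1 averaged 20.6 CPM in E7 ear and 30.4 CPM in C57 ear (-0.56 ± 0.10, edgeR adjusted p = 0.000413). The C-type peptide receptor Npr2 averaged 40 CPM in E7 ear and 122 CPM in C57 ear (-1.60 ± 0.11), and the clearance receptor Npr3 15 CPM in E7 ear and 47.2 CPM in C57 ear (-1.65 ± 0.11).

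Corin, a protease that cuts natriuretic pro-peptides, fell by 1.87 on the log2 scale, the neutral endopeptidase Mme by 1.62, and the cGMP-dependent kinases Prkg1 and Prkg2 by 1.49 and 1.75. Furin, another pro-peptide protease, rose by 0.48 and the cGMP phosphodiesterase Pde5a by 0.52. Nppa, the atrial peptide gene that lies beside Nppb, had at most 7 counts in any library and was too low to test. In grafts Npr2 and Npr3 were lower in E7 than in C57 skin on both days (Npr2 -0.93 at 14 dpg and -0.88 at 28 dpg; Npr3 -0.92 and -0.67), whereas Npr1 did not pass on either (edgeR adjusted p = 0.0887 and 0.299). At 28 dpg the Npr3 call was lost without replicate 2 of the C57 grafts (edgeR adjusted p = 0.0872) or replicate 3 of the E7 grafts (0.069), and at 14 dpg Npr1 passed without replicate 3 of the E7 grafts (0.0346). Markers of other tissues moved in the same ear contrast, and their part in these results was not tested: all 6 skeletal muscle markers fell (median -1.59), all 5 adipocyte markers fell (median -1.96) and 6 of 8 keratinocyte markers rose (median 0.57). Summed heart muscle markers were 24.4 to 31.3 CPM in E7 ear, against 59.1 to 118 CPM in C57 ear, and 4 of the 5 tested fell.

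Receptors of neuromedin U were close to absent from the libraries. Nmur1 had at most 3 counts in any of the 24 libraries, and Nmur2 and Nms, a related peptide gene, had at most 1, so none was tested. Neuronal markers summed to 10.0 to 14.9 CPM in E7 ear, against 4.87 to 5.63 CPM in C57 ear (2 of 3 tested rose and 1 fell).

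For Lpo, the enzymes that supply hydrogen peroxide and the related peroxidases were examined. Of 11 genes 6 were tested in ear, and 5 fell and none rose (median -0.80), where 65.3% of 15720 genes were called in either direction. Duox1 and Duox2, the dual oxidases that release hydrogen peroxide, fell by 0.49 and 0.79, the maturation factor Duoxa1 by 0.81, the oxidase Nox4 by 0.94 and the matrix peroxidase Pxdn by 1.01. The Duox1 call was lost with all 24 libraries in one fit (edgeR adjusted p = 0.18), and the Duox2 call without either of 2 E7 libraries (edgeR adjusted p = 0.0512 and 0.0534). The phagocyte oxidase Cybb did not pass (-0.02 ± 0.24, edgeR adjusted p = 0.945). The paralogs Mpo and Epx, which neighbour Lpo, had at most 9 and 6 counts in any library. Salivary, mammary and airway gland markers summed to 13.1 to 19.4 CPM in E7 ear, against 23.5 to 29.3 CPM in C57 ear, with Wap and Dcpp1 at 0 in all libraries. Of the 3 tested, 2 fell and 1 rose. The lower sum came mostly from Amy1 (5.25 CPM in E7 ear and 19.8 CPM in C57 ear on average). Aqp5 rose by 1.38 on the log2 scale (10.1 CPM in E7 ear and 3.9 CPM in C57 ear).

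Among 10 other adhesion G protein-coupled receptor genes, 8 were tested in ear, and 4 rose and 2 fell (median 0.18). Of all 15720 genes 65.3% were called in either direction in that contrast. Adgrf4 rose by 0.97, Adgrl2 by 0.76, Adgrg1 by 0.74 and Adgrg5 by 0.72 on the log2 scale, and Adgrg2 fell by 1.42 and Adgrg6 by 0.80. All of these had at least 2.27 CPM in C57 ear. Adgrf1 was too low to test in ear, with 0.959 ± 0.239 CPM in E7 ear and no read in C57 ear, and Adgrg4 had at most 1 count in any library. Intestinal markers summed to 114 to 156 CPM in E7 ear, against 79.2 to 81.9 CPM in C57 ear; 2 of 5 tested rose and 3 fell. The higher sum came from the glucose transporter Slc5a1 (93.4 CPM in E7 ear and 27.2 CPM in C57 ear). The cadherin Cdh17 rose as well, by 1.88 on the log2 scale (1.57 CPM in E7 ear and 0.412 CPM in C57 ear). Lgals4, Lgr5 and Muc2 fell. The intestinal genes Cdx2 and Alpi were at 0 in all libraries.

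**Figure D3:**
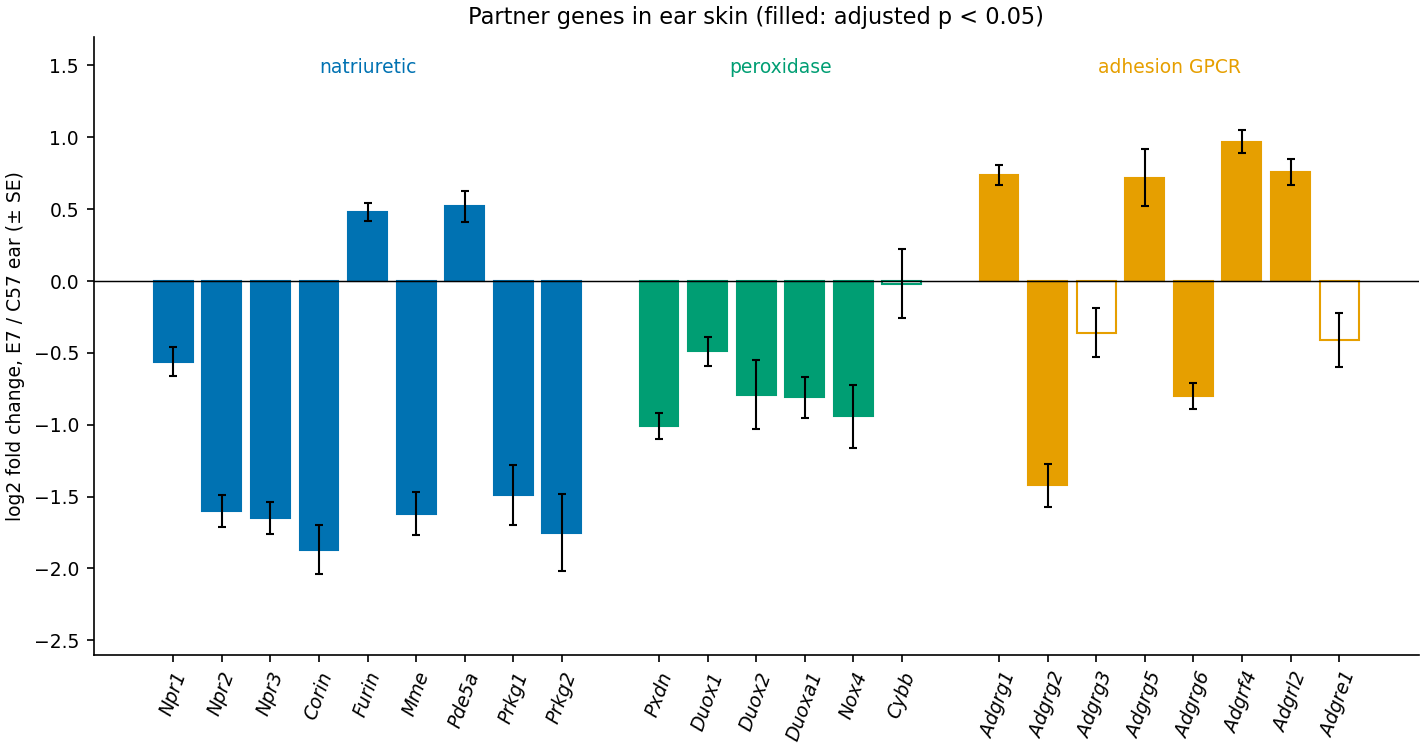
Log2 fold change (± SE), E7 over C57 ear, of the partner genes that could be tested; filled bars passed at adjusted p < 0.05. The receptors Npr1, Npr2 and Npr3 lie at -0.56, -1.60 and -1.65, and no peroxidase system gene rose; neuromedin genes were too low to test.

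The nearest protein-coding genes on each side of the 4 genes were read in the same ear libraries; since the 4 genes were chosen for a large difference in that contrast, their distance from their neighbours in it is no finding. Beside Adgrg7, Tmem45a (9.15 kb away) rose by 0.97, Tfg (7.14 kb) rose by 0.47 and Abi3bp (34.5 kb) fell by 1.75. Beside Nppb, Plod1 fell by 1.14 and Clcn6 by 0.48, and 2510039O18Rik did not pass (0.16, edgeR adjusted p = 0.064). Beside Lpo, Mks1 fell by 0.33 and Tspoap1 did not pass (0.12, edgeR adjusted p = 0.409; -0.00 under upper quartile scaling).

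Beside Nmu, the circadian gene Clock (27.9 kb) rose by 0.45 and Exoc1 by 0.22, and Cep135 did not pass (0.19, edgeR adjusted p = 0.209). The remaining neighbours, Lnp1, Nppa, Mpo, Epx and Pdcl2, were too low to test. Pdcl2, the nearest gene to Nmu at 2.34 kb, and Mpo, the nearest to Lpo at 2.02 kb, averaged 0 and 0.413 CPM in E7 ear and 0 and 0.0522 CPM in C57 ear.

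**Figure D4:**
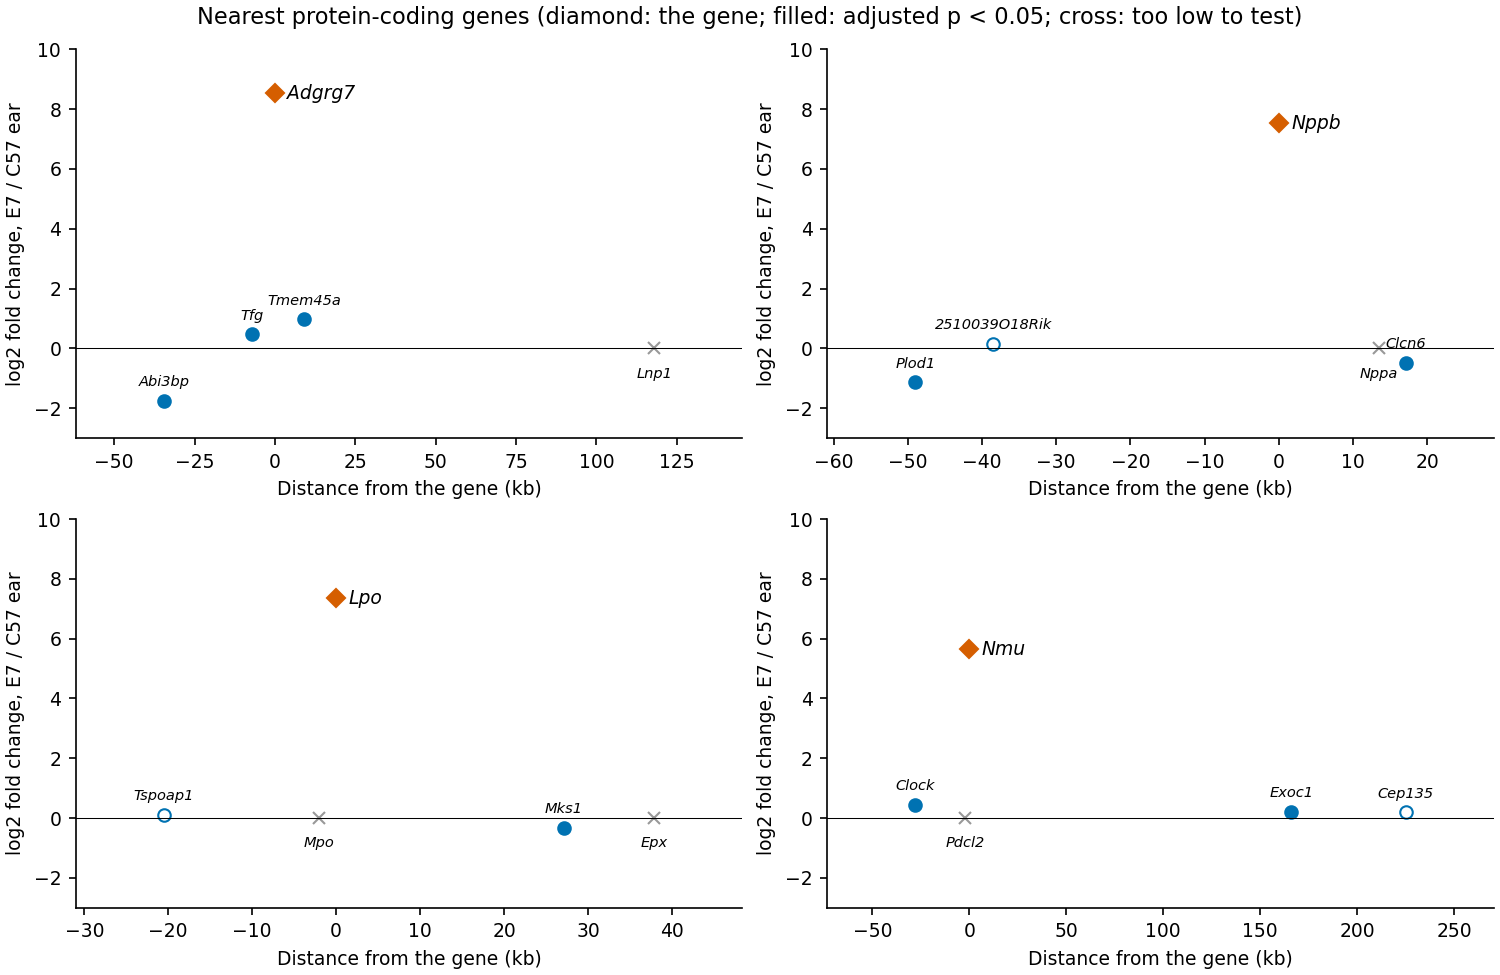
Log2 fold change, E7 over C57 ear, of each of the 4 genes (diamond, at distance 0) and of the nearest protein-coding genes on each side against their distance in kilobases. Filled points passed at adjusted p < 0.05, and crosses are genes too low to test, drawn at 0 with no value; neighbours lie between -1.75 and 0.97.

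The genes with the most similar course over the 24 libraries, by the root mean square difference of gene-centred log2 CPM, included several genes of the cornified epidermis. This measure includes the E7 and C57 libraries that chose the 4 genes, so it is a description. Closest to Adgrg7 were Elf3, an epithelial transcription factor (1.12), Sprr2a1 and Sprr2a2 (1.17 each) and Lpo itself (1.23), against a median of 2.86 over all genes. Closest to Lpo were Sprr2a2 (0.81), Sprr1b (0.85), Sprr2g (0.86) and the kallikrein Klk6 (0.86), with a median of 2.84. The Sprr genes encode small proline-rich proteins of the cornified envelope, and reads of near-identical copies such as Sprr2a1 and Sprr2a2 may have been split between them.

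Closest to Nppb were the epidermal growth factor family gene Epgn (0.71), the protease Prss27 (0.76), the cyclin Ccne1 (0.80) and Slfn9 (0.89), with a median of 2.07. Closest to Nmu were Dio2, which activates thyroid hormone (0.78), the growth factor Ereg (0.91), filaggrin (Flg, 0.93) and Ulbp1, a ligand of an activating receptor of natural killer cells (0.97), with a median of 1.86. Among 15211 genes, Lpo ranked 4th for Adgrg7 and Nmu ranked 744th. Nmu ranked 235th for Lpo, whereas Lpo ranked 10543rd and Adgrg7 14488th for Nmu.

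The CD1dKOxE7 and E7 grafts at 14 dpg are part of the measure that picked these genes. Their log2 differences in that contrast are therefore descriptions with no test. For the genes closest to Nmu, itself 18.1-fold lower, they were -2.78 ± 0.35 (Ereg), -2.39 ± 0.26 (Flg), -2.31 ± 0.41 (Dio2) and -1.56 ± 0.25 (Ulbp1). For those closest to Nppb they were -1.01 ± 0.22 (Ccne1), -0.76 ± 0.44 (Epgn), -0.44 ± 0.20 (Slfn9) and -0.01 ± 0.12 (Prss27). For those closest to Lpo or Adgrg7 they were 0.98 ± 0.25 (Sprr2g), 0.42 ± 0.13 (Klk6), 0.32 ± 0.32 (Elf3), 0.57 ± 0.45 (Sprr2a1), 0.61 ± 0.41 (Sprr2a2) and -0.82 ± 0.37 (Sprr1b). With each library left out, Epgn ranged from -1.61 to -0.36 and Elf3 from 0.03 to 0.91. Sprr2a2 ranged from 0.25 to 1.21 and Klk6 from 0.32 to 0.48.

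**Figure D5:**
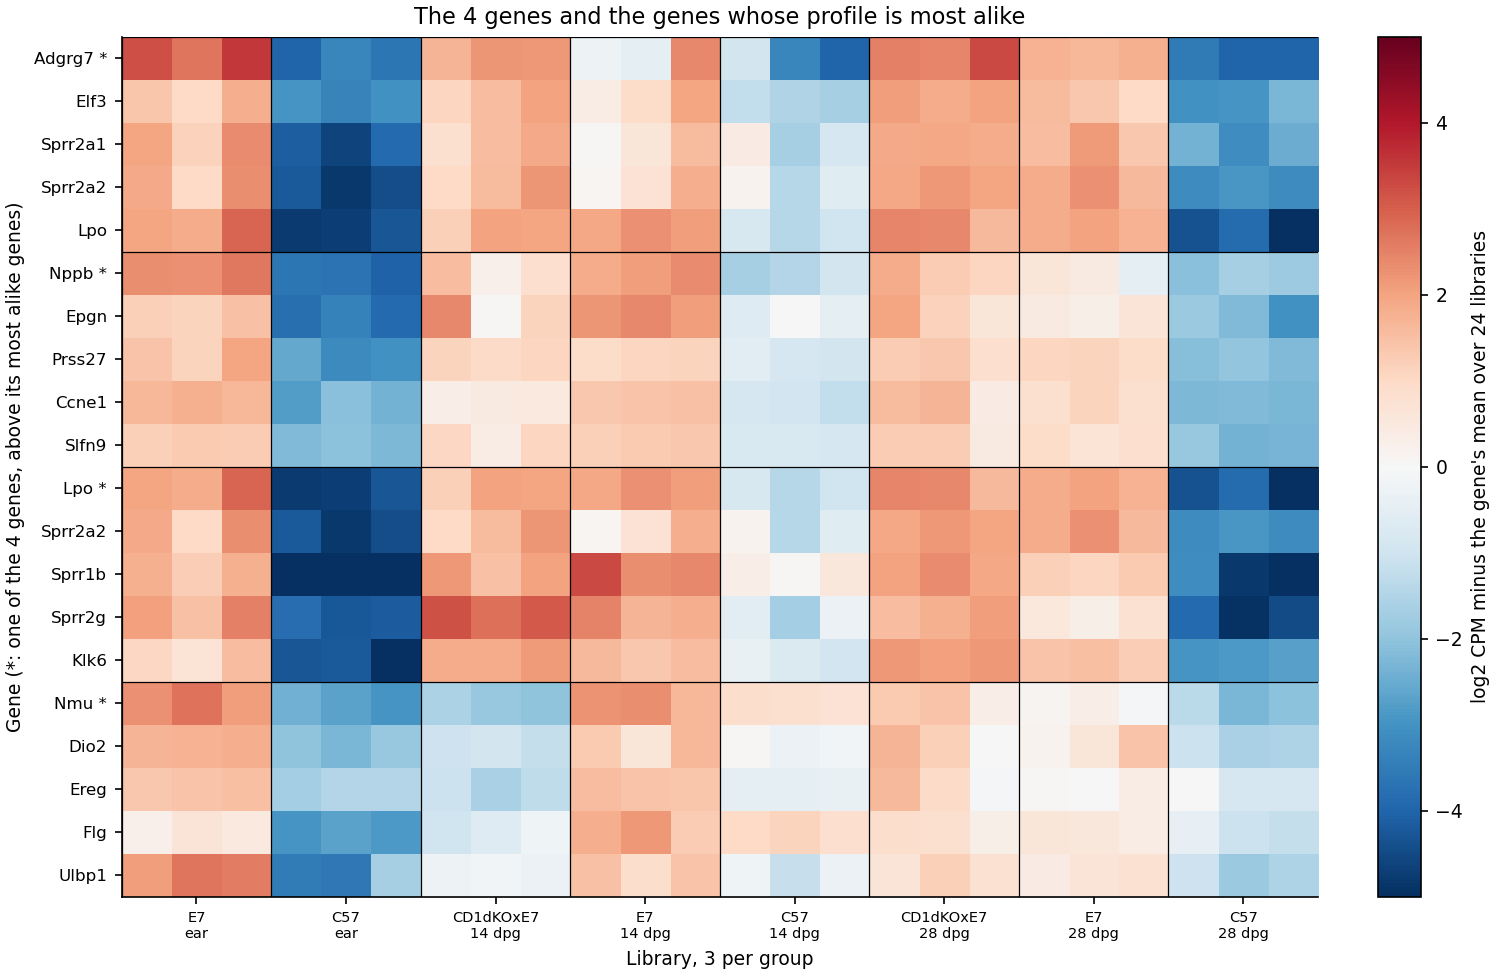
Gene-centred log2 CPM (colour) of each of the 4 genes (marked with an asterisk) and of the genes with the most similar course, in 24 libraries by group. The block of Nmu is blue in CD1dKOxE7 grafts at 14 dpg, where the blocks of Adgrg7 and Lpo are red.

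The level pattern of the 4 genes was shared by other rows. In all, 174 rows had a mean under 1 CPM in C57 ear and of at least 10 CPM in E7 ear or in E7 grafts of either day. The 4 genes and the E7 transgene are counted among the 174 rows, and 69 of the rows were Krt or Krtap genes. By their highest E7 mean, Lpo ranked 41st, Adgrg7 94th, Nppb 112th and Nmu 132nd. The first 10 were Krt71, Krt25, Krt27, Krt81, Krtap8-1, Krt33a, Krt86, Krt83, Krtap15 and Krtap7-1, keratin and keratin-associated genes that were also high in C57 grafts at 14 dpg (2897 CPM for Krt71, against 8.05 CPM in E7 ear). Only 31 of the 174 rows reached 10 CPM in E7 ear, as all 4 genes did, and 19 of these stayed under 10 CPM in C57 grafts of both days.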

How the data were processed

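RNA of whole ear skin and of grafts was sequenced from libraries made with the TruSeq RNA v2 kit, per the labels' protocols. The authors deposited raw read counts per gene, 1 table per library. Per the submitters' processing notes the build was mm10, with bcl2fastq 1.8.4, FastQC and Trimmomatic named; the aligner, counter, annotation and strand are not given in the sources used here. Of 27180 rows, 25275 matched RefSeq genes.

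Counts were tested with edgeR 4.0.16 (limma 3.58.1, R 4.3.3). Genes were kept by filterByExpr (groups as given, minimum count 10, minimum total 15), scaled by TMM and tested with robust quasi-likelihood F tests, p-values being adjusted by Benjamini-Hochberg over all genes of a fit, with a call at adjusted p < 0.05. Ear (6 libraries, 15720 genes) and graft libraries (18 libraries, 16189 genes) were fitted apart. The SE is the log2 fold change over the square root of F. CPM values use 1 TMM scale over 24 libraries, and ± after a level is the SD of 3. Intervals of count ratios are exact and, like the floor of 3 counts, cover counting error only. No libraries of a group agreed within sampling noise (chi-square per degree of freedom at least 3.611).

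The 4 genes, the partner and marker lists, the motifs and the alternatives were chosen with earlier results of these data known. The text names the 4 genes, every partner called in ear, the natriuretic and neuromedin receptors, the 2 nearest protein-coding genes on each side, the 4 genes of most similar course (log2 CPM with a prior count of 2) and the first 10 rows of like level. Cybb, Nms, Adgrf1, Adgrg4 and the single markers named were added after their values were seen. For the 4 genes 24 results were tested, over 6 comparisons of grafts. Alternatives were RLE and upper quartile scaling, other low-count filters, DESeq2 1.42.0, a replicate block, smaller or larger fits and leaving out each library. Figures were drawn with matplotlib 3.10.9 in Python 3.11.15.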

Additional observations from a re-analysis of the deposited data

Results flagged for a closer look

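The difference between CD1dKOxE7 and E7 grafts was not the same on both days for Nmu and Nppb. For Nmu the log2 fold change was 1.00 at 28 dpg and -4.18 at 14 dpg, a change of 5.18 (edgeR adjusted p = 5.38e-05), and it was 5.00 to 5.46 when each library was left out. For Nppb the log2 fold change was 1.19 at 28 dpg and -1.17 at 14 dpg, a change of 2.36 (edgeR adjusted p = 0.00511), and it was 2.07 to 2.79 when each library was left out. Both were past the threshold in every fit that left out a library (largest edgeR adjusted p 0.000511 for Nmu and 0.0182 for Nppb). High levels in E7 grafts could enter the choice of the genes, so the E7 arm of these differences is not independent of that choice.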

How the results depend on the processing

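Of 335 alternative values of the 24 tested results of the 4 genes, 326 kept their direction and side of the threshold; the cause of the others was not tested. Ranges with each library left out were, for CD1dKOxE7 against E7 at 14 dpg, 0.37 to 2.51 for Adgrg7 and -1.60 to -0.89 for Nppb; at 28 dpg, 0.81 to 1.28 for Nmu; for 28 against 14 dpg, 0.10 to 2.23 for Adgrg7 in E7 grafts and 0.24 to 0.68 for Lpo in CD1dKOxE7 grafts; and for the change between days, 0.46 to 0.90 for Lpo and -1.44 to 0.70 for Adgrg7. Adgrg7 turned there without E7 replicate 3 of 14 dpg (-1.44) and CD1dKOxE7 replicate 3 of 28 dpg (-0.08). Replicate numbers did not pair the grafts (10 of 45 correlations of same-numbered deviations were over 0.1, range -0.349 to 0.294). A replicate block turned Adgrg7 in the change between days (-0.09) and moved the genes called in CD1dKOxE7 against E7 at 28 dpg to 65, against 34 without it. That count was 3 with only the compared groups in the fit, 241 with DESeq2 and 4 to 304 with a library left out (304 without CD1dKOxE7 replicate 3). CD1dKOxE7 grafts between days gave 3660 calls, 1308 with only the compared groups and 2022 to 5142 with a library left out; the change between days gave 2080, 1314 and 1099 to 3956. E7 grafts between days gave 2778 and 1211 to 2753, and E7 against C57 at 14 dpg 4889 and 3043 to 4488. Upper quartile scaling moved the median of all genes by -0.12 in ear and the share of calls that were higher to 39.1% there (50% in TMM), to 52.2% in C57 grafts between days (37.1%), to 47.9% in E7 against C57 at 28 dpg (58.4%) and to 43.9% in CD1dKOxE7 against C57 at 28 dpg (54.2%).

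Of 889 alternative values of other named genes, 858 kept direction and side. Values that turned were those of Cybb in ear (0.06 and 0.02 each without a C57 library, 0.22 without an E7 library; range -0.22 to 0.22), Tspoap1 in ear (-0.00, upper quartile) and Prss27 in CD1dKOxE7 against E7 at 14 dpg (0.03 with no low-count filter, 0.02 with only the compared groups, -0.07 to 0.03 with a library left out), none past the threshold. Exoc1 lost its call under upper quartile scaling (edgeR adjusted p = 0.175). Adgrg3 (-0.48) and Adgre1 (-0.52) passed under upper quartile scaling, and Adgrg3 also without an E7 library. 2510039O18Rik passed with all 24 libraries (0.0463) and without either of 2 libraries (0.0457 and 0.0444). With limits of 0.5 and 20 CPM, chosen after seeing the data, 111 rows had the level pattern of the 4 genes, against 174. Adgrg7 in most C57 libraries and Nppb in C57 ear lay below 3 counts a library, so their levels there are poorly known.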
